A study of Mus musculus with 13 samples.

Results

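Mitochondrial DNA encodes 13 mRNAs, 2 rRNAs and 22 tRNAs in the mouse, and the measurements below concern these 37 genes in gluteal white adipose tissue (WAT). Members were the genes of the deposited count table whose Ensembl identifier, without its version, carries a mouse symbol that starts with mt-. This rule found 36 of the 34419 genes in the table, which were all 13 mRNAs, both rRNAs and 21 tRNAs. The remaining gene, mt-Tk, a lysine tRNA, had no row, and no row of the table was at 0 in every library. RNA was sequenced from gluteal WAT of C57BL/6J mice that were kept at 22°C (n = 7) or at 29°C (n = 6), starting at birth and ending at 13 weeks of age. All 13 mice lacked fur on the rear of the body from about the time of weaning, and no group with intact fur was part of this comparison. Per the study's methods they were males. The libraries were made from whole tissue, so that fewer cells of a type and less RNA per cell cannot be told apart.

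Mitochondria keep a small circular genome whose strands are each copied into long precursor RNAs, which are then cut at the tRNAs that lie between most of the genes. The proteins it encodes are core subunits of respiratory complexes I, III and IV and of ATP synthase (complex V), and each of these complexes is completed by many subunits encoded in the nucleus. Nearly all mitochondrial messages are read from the heavy-strand promoter, whereas mt-Nd6 and several tRNAs come from the opposite strand. Pieces of mitochondrial DNA have also been copied into nuclear chromosomes during evolution, and a read from such a stretch can match both places.

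4 sequences show the regions on which the measurements turn. All are written 5′ to 3′ on the strand of the gene, from GENCODE M21 transcripts on the GRCm38 build, whereas the submitters' processing notes name GRCm39. The first is the whole of mt-Tw, a tryptophan tRNA at chrM:4950-5016 on the plus strand, shown because it had the largest difference between temperatures, with capitals for the 2 bases that are annotated to mt-Nd2 as well. The second is the last 60 bases of mt-Nd6 at chrM:13552-13611 on the minus strand, the mRNA with the largest difference, with capitals for the 14 bases that overlap mt-Nd5 on the other strand.
mt-Tw: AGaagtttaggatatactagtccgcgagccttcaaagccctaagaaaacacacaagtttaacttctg
mt-Nd6 end: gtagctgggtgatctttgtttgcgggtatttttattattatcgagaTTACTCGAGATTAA
The third is a stretch of 90 bases from the middle of mt-Co3 at chrM:8953-9042 on the plus strand. It was printed because the nuclear pseudogene Gm28437 holds the same 90 bases at chr1:24613536-24613625 on the minus strand, without a single difference, so the letters below stand for both.
mt-Co3 and Gm28437: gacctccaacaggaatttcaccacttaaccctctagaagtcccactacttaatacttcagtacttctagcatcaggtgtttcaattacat
The fourth is the matching stretch of mt-Nd2 at chrM:4652-4741 on the plus strand and of its nuclear copy Gm13339 at chr2:22590234-22590323 on the minus strand, as a contrast. Here capitals mark the 4 bases that differ between them.
mt-Nd2: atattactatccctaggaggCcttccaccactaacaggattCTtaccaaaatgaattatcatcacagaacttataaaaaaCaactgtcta
Gm13339: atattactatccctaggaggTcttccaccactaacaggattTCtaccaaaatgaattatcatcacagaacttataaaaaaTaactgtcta

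Library totals were between 22356637 and 25245785 counts, and they fell into a lower cluster of 5 libraries, which were replicates 1 to 5 at 22°C, and a higher cluster of 8 libraries, which were replicates 6 and 7 at 22°C and all 6 at 29°C. Values within the higher cluster are therefore given beside the pooled ones, with only 2 mice at 22°C. The 10 mature adipocyte markers took 2.11% to 3.65% of all counts at 22°C and 3.22% to 3.83% at 29°C, with *Cfd*, *Fabp4* and *Pnpla2* the most abundant, so the labelled tissue carried its markers. Skeletal muscle markers varied far more. The 30 muscle genes took 0.118% to 9.44% of counts at 22°C (median 0.899%) and 0.0206% to 0.908% at 29°C (median 0.210%), and none of the 30 was at 0 in all libraries. Each of the 30 had a higher mean at 22°C (median log2 fold change 3.16), and edgeR called 0 of them at P-adj below 0.1, against 1.94% of all genes tested, whereas 23 had an unadjusted p below 0.05, against 18.5%, and DESeq2 called 21, against 10.2%. Replicates 1 and 7 at 22°C had the highest muscle scores, which is the mean log2 CPM (counts scaled to library size) of these genes, at 10.4 and 9.98.

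Mitochondrial genes took a larger share of the library at 22°C than at 29°C. At 22°C the share of all counts was 5.96% at its lowest, 7.54% at the median and 10.7% at its highest, and at 29°C these values were 5.25%, 6.16% and 7.52%. The means were 7.86% ± 1.54 (SD, n = 7) and 6.30% ± 0.856 (SD, n = 6), which is 1.25 times as much, with a difference of 1.56 percentage points. In a two-sided exact permutation test over all splits of the mice this gave p = 0.0414, and P-adj = 0.0800 over 4 shares, below the threshold of 0.1. The groups overlapped, with 4 of 7 mice at 22°C above every mouse at 29°C.

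Nearly all of that share was mRNA. The 13 mRNAs held a mean of 7.54% ± 1.48 of counts at 22°C and 6.03% ± 0.822 at 29°C (exact permutation p = 0.0396, P-adj = 0.0800). The 21 tRNAs held 0.0768% ± 0.0206 and 0.0584% ± 0.00840 (exact permutation p = 0.0600, P-adj = 0.0800). The 2 rRNAs, the RNA core of the mitochondrial ribosome, held 0.239% ± 0.0525 and 0.216% ± 0.0454, and this difference was within the spread between mice (exact permutation p = 0.409, P-adj = 0.409).

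**Figure D1:**
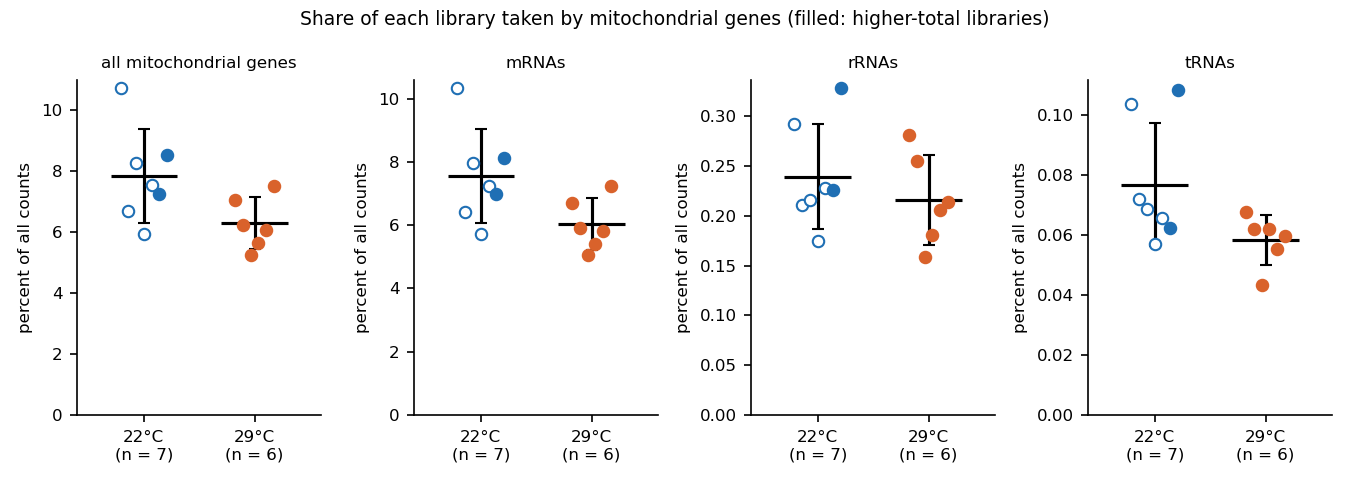
Percent of all counts in each library taken by all mitochondrial genes, mRNAs, rRNAs and tRNAs at 22°C (blue, n = 7) and 29°C (orange, n = 6), with 1 circle per mouse, the mean as a horizontal line and the SD as bars. Filled circles are libraries of the higher-total cluster and open circles those of the lower one, and the circle at 10.7% in the first panel is replicate 1 at 22°C.

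The call on the share depended on single mice. With any 1 mouse left out the difference stayed between 1.08 and 1.88 percentage points, but P-adj of the exact permutation test was between 0.104 and 0.192, no longer below 0.1, without replicate 1 or 7 at 22°C or without replicate 2, 3, 4 or 5 at 29°C. Among the 8 higher-total libraries alone the difference was 1.61 percentage points in the same direction, with an exact permutation p of 0.107 where 28 splits allow 0.0357 at the smallest. Without replicates 1 and 7 at 22°C, the mice with the most muscle RNA, the difference was 0.849 and P-adj was 0.217 (exact permutation test), and what muscle RNA contributed to the result was not tested.

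The 13 mRNAs fell into 2 tiers of level. Per kilobase of transcript, 7 of them, mt-Nd1, mt-Nd2, mt-Co1, mt-Nd4, mt-Nd5, mt-Nd6 and mt-Cytb, had mean levels between 5004 and 17997 CPM per kb at 22°C and between 3045 and 14008 at 29°C. The other 6, mt-Co2, mt-Atp8, mt-Atp6, mt-Co3, mt-Nd3 and mt-Nd4l, had levels between 15.6 and 35.0 CPM per kb at 22°C and between 13.1 and 27.1 at 29°C. The lowest of the abundant mRNAs was thus 143-fold above the highest of the low ones at 22°C, and 112-fold above it at 29°C. Together the 6 low mRNAs held between 0.0805% and 0.112% of mitochondrial mRNA counts in each library, although they encode subunits of the same complexes as the abundant ones.

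Most of the low mRNAs, but not mt-Atp8, had nuclear copies along nearly their whole length. Of all windows of 50 bases along each transcript, the share that also occurs without a mismatch in another annotated transcript was 100% for mt-Co2, 99.9% for mt-Co3, 99.5% for mt-Atp6, 98.8% for mt-Nd4l and 98.0% for mt-Nd3, and it was 0% for mt-Atp8, the sixth low mRNA. Among the abundant mRNAs it was 62.2% for mt-Nd4, 51.1% for mt-Co1, 8.19% for mt-Nd2 and 7.61% for mt-Nd5, and it was 0% for mt-Nd1, mt-Nd6 and mt-Cytb. Windows of 100 bases gave a like picture, with 97.6% to 99.9% for those 5 low mRNAs, 60.8% for mt-Nd4 and 30.8% for mt-Co1. The read length is not given in the sources used here.

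The copies of the low mRNAs lie side by side. Within 4663 bases of chromosome 1, between 24611535 and 24616197 on GRCm38, the annotation has 7 pseudogenes in a row on the minus strand. In order, Gm28439, Gm10222, Gm28438, Gm28437, Gm10925, Gm28661 and Gm29216 match mt-Nd4, mt-Nd4l, mt-Nd3, mt-Co3, mt-Atp6, mt-Co2 and mt-Co1, which is the reverse of their order on mitochondrial DNA. Without gaps the match was exact over 681 bases of mt-Co2, 678 of mt-Atp6, 783 of mt-Co3, 294 of mt-Nd4l and 876 of mt-Nd4, with 1 mismatch in 345 bases of mt-Nd3 and 6 in 492 bases of mt-Co1. mt-Atp8, which lies between mt-Co2 and mt-Atp6 and overlaps the start of mt-Atp6, had no exact 50-base copy in any annotated transcript. Its last bases, chrM:7927-7969, also belong to mt-Atp6, where the match to Gm10925 was exact. Between the copies of mt-Co2 and mt-Atp6 lie 233 bases without annotation. Whether that gap holds a copy of the rest of mt-Atp8 was not analysed here, for want of a genome sequence.

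Low mRNAs had counts closer to those of their copies than abundant ones had. mt-Atp6 had a mean of 411 counts per library against 370 for Gm10925, mt-Co2 had 320 against 224 for Gm28661, and mt-Co3 had 325 against 197 for Gm28437. mt-Nd4l had 101 against 44.2 for Gm10222, whereas mt-Nd3 had 259 against 12.8 for Gm28438, or 20.3 times as many. mt-Nd4 by contrast had 150242 counts against 287 for Gm28439, and mt-Co1 had 590366 against 359 for Gm29216. The counts of mt-Co2, mt-Atp6, mt-Co3, mt-Nd3 and mt-Nd4l, and part of those of mt-Nd4 and mt-Co1, are uncertain for this reason, since how reads with several matches were counted is not given in the sources used here. Only annotated transcripts were searched for copies. On mitochondrial DNA, mt-Ts1, mt-Td, mt-Tk, mt-Atp8, mt-Tg and mt-Tr lie between these genes. Unannotated copies of them were not looked for, so their counts may be uncertain as well.

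**Figure D2:**
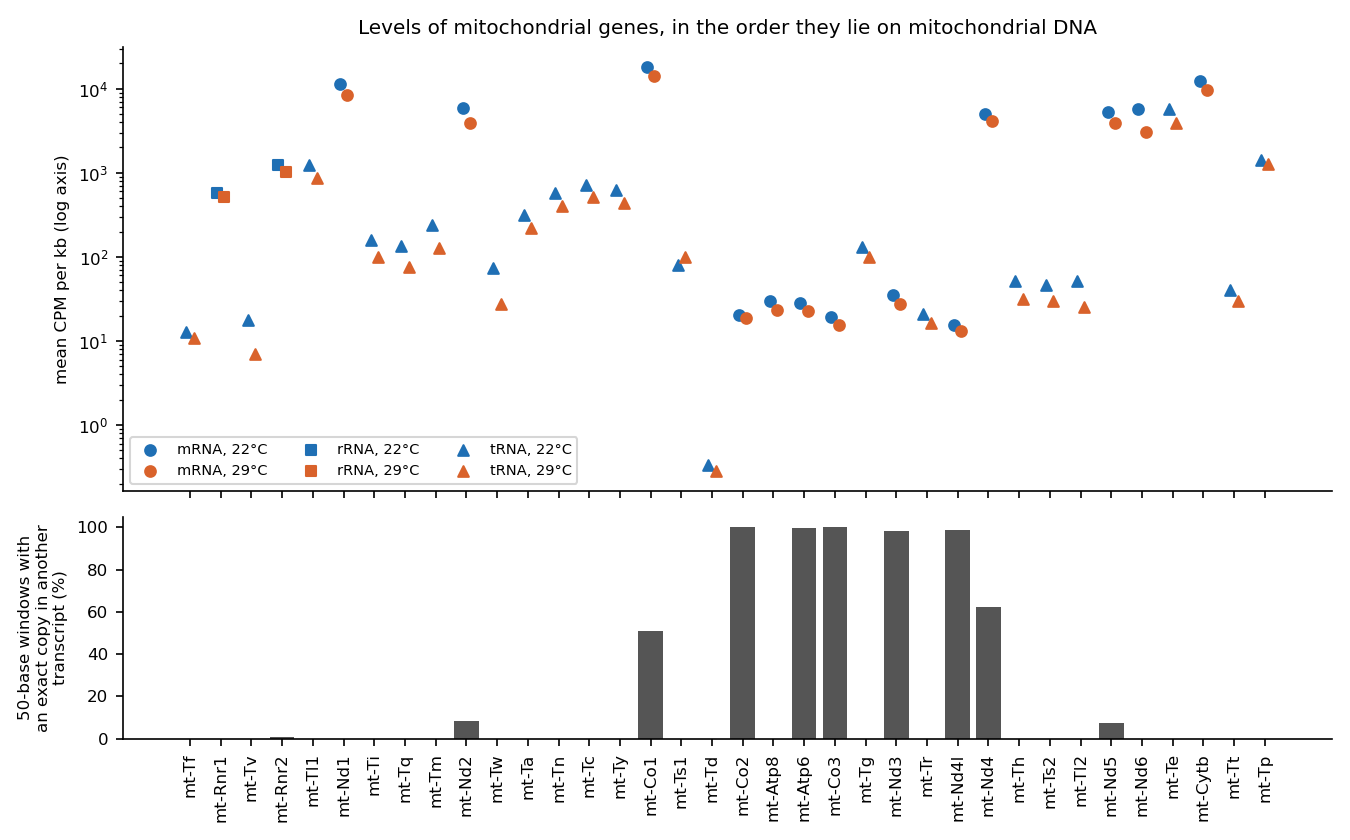
The upper panel shows the mean level of each of the 36 mitochondrial genes in CPM per kb, on a log axis, at 22°C (blue) and 29°C (orange), in the order of mitochondrial DNA, with circles for mRNAs, squares for rRNAs and triangles for tRNAs. Bars in the lower panel give the percent of 50-base windows with an exact copy in another annotated transcript, which is above 97% for 5 of the 6 mRNAs in the low tier and 0% for mt-Atp8.

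Ribosomal and transfer RNAs had levels of their own. mt-Rnr1, the small-subunit rRNA, had mean levels of 571 and 511 CPM per kb at 22°C and 29°C, and mt-Rnr2, the large-subunit rRNA, had 1228 and 1029, below each of the 7 abundant mRNAs. The sources used here do not say whether rRNA was depleted or polyadenylated RNA selected. The level per kb of a tRNA could be near that of an adjoining mRNA or far below it. mt-Te, a glutamate tRNA that directly adjoins mt-Nd6 on the light strand, had 5689 and 3903 CPM per kb, near the 5662 and 3045 of mt-Nd6. By contrast mt-Tt, which directly follows mt-Cytb, had 40.3 and 30.1, against 12429 and 9661 for mt-Cytb. mt-Td, the aspartate tRNA, had 7 counts over all 13 libraries and was the only member that did not pass the filter on low counts.

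Of the 35 mitochondrial genes tested with edgeR, 34 were higher at 22°C, where 51.6% of all 17779 genes tested were higher. Their median log2 fold change was 0.42, against 0.0074 over all genes tested. At P-adj below 0.1 edgeR called 2 of the 35, mt-Nd6 and mt-Tw, both higher at 22°C, against a background of 1.94% of all genes tested in either direction, 0.731% higher and 1.21% lower at 22°C. An unadjusted p below 0.05 was reached by 9 of 35, all higher at 22°C, against 18.5% of all genes and 10.3% in that direction. DESeq2 called 5, mt-Nd2, mt-Nd6, mt-Tm, mt-Tq and mt-Tw, against a background of 10.2% of the genes it tested. The groups overlapped in every member tested, whereas 1.24% of all genes tested had groups that did not, a share that would make up less than 1 gene of 35. With replicates 1 and 7 at 22°C left out, 27 of 35 were higher at 22°C and the median was 0.11, and with the muscle score as a covariate these values were 30 of 35 and 0.21, with 0 called by edgeR, against 0.225% of all genes in that fit. With the library-total cluster as a covariate edgeR also called 0, against 0.0225%, and 35 of 35 were higher at 22°C with a median of 0.55. With the replicate number as a block 32 of 35 were higher with a median of 0.22. In that fit edgeR called 0 of them, against 214 genes over the whole table.

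**Figure D3:**
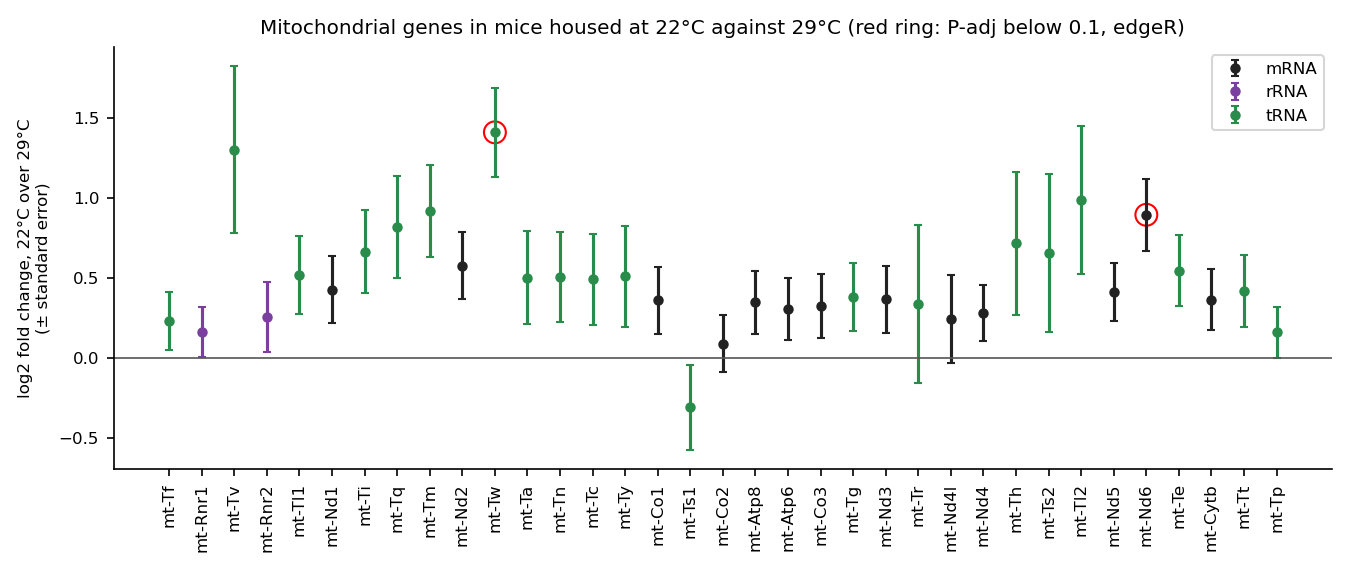
Log2 fold change of 22°C over 29°C with its standard error for the 35 tested mitochondrial genes, in the order of mitochondrial DNA, in black for mRNAs, purple for rRNAs and green for tRNAs. Points lie above 0 except mt-Ts1 at -0.31, and red rings mark mt-Tw at 1.41 and mt-Nd6 at 0.89, the only genes with P-adj below 0.1.

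All 13 mRNAs were higher on average at 22°C, where 51.6% of all genes tested were higher. Against 1.94% of all genes tested, edgeR called 1 of the 13. This was mt-Nd6, a complex I subunit and the only protein encoded on the light strand. The strand setting is not given in the sources used here, so heavy-strand RNA that crosses this gene may be counted in it. Its level at 22°C was 1469 CPM at the lowest, 2975 at the median and 4797 at the highest, and at 29°C it was 1182, 1629 and 1910. All but 1 of the 7 mice at 22°C lay above every mouse at 29°C. The fold change was 1.86 (95% interval 1.37 to 2.52, log2 0.89, SE 0.22, edgeR P-adj = 0.0896), which is a fold in TMM-scaled counts. The 1 mouse within the range of 29°C was replicate 6, of the higher-total cluster, and with that cluster as a covariate the log2 fold change was 0.28 (edgeR P-adj = 0.697). mt-Nd6 was called in 1 of 13 fits that each left out a mouse, the one without replicate 6 at 22°C. With the replicate number as a block its log2 fold change was 0.88 (edgeR P-adj = 0.159).

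The other complex I mRNAs encode membrane-arm subunits that take part in proton pumping. mt-Nd2 had 4200, 5498 and 9855 CPM (lowest, median, highest) at 22°C and 2993, 3813 and 5824 at 29°C, giving a log2 fold change of 0.58 (SE 0.21, edgeR P-adj = 0.187), and DESeq2 called it (P-adj = 0.0639). mt-Nd1 had 7027, 9867 and 16438 CPM at 22°C and 6242, 7563 and 10925 at 29°C, with a log2 fold change of 0.43 (SE 0.21). mt-Nd5 had 6997, 8521 and 14249 CPM against 5634, 7192 and 8758, with 0.41 (SE 0.18). In these 3 genes 2 or 3 mice at 22°C lay above all mice at 29°C, and none passed the edgeR test. mt-Nd4 had 4879, 6250 and 10177 CPM against 4739, 5505 and 7181, and its log2 fold change of 0.28 (SE 0.17) was the smallest among the 7 abundant mRNAs. The low mRNAs of complex I, mt-Nd3 and mt-Nd4l, had log2 fold changes of 0.37 (SE 0.21) and 0.24 (SE 0.27), within the spread between mice.

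mt-Cytb, the only mitochondrially encoded subunit of complex III, had 9794, 13188 and 21157 CPM at 22°C and 9323, 10521 and 14769 at 29°C. This was a log2 fold change of 0.36 (SE 0.19, edgeR P-adj = 0.331). mt-Co1 encodes the catalytic core of complex IV and had the highest level of all members at both temperatures, also per kb. It had 18808, 25999 and 44919 CPM at 22°C and 18057, 20823 and 26881 at 29°C, giving a log2 fold change of 0.36 (SE 0.21, edgeR P-adj = 0.378). The groups overlapped in both genes, and replicate 1 at 22°C was the highest library in each. mt-Co2 and mt-Co3, the other complex IV mRNAs, had log2 fold changes of 0.09 (SE 0.18) and 0.33 (SE 0.20). The ATP synthase mRNAs mt-Atp6 and mt-Atp8 had 0.31 (SE 0.19) and 0.35 (SE 0.20). None of these 4 low mRNAs passed the edgeR test.

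The rRNAs had small differences. mt-Rnr1 had 423, 504 and 800 CPM at 22°C and 361, 472 and 601 at 29°C, giving a log2 fold change of 0.16 (SE 0.16, edgeR P-adj = 0.630). mt-Rnr2 had 1239, 1682 and 2934 CPM against 1191, 1665 and 2120, with 0.26 (SE 0.22, edgeR P-adj = 0.567). Their medians at the 2 temperatures were close, and without replicates 1 and 7 at 22°C both fold changes were below 0, at -0.03 and -0.06.

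Of the 20 tRNAs tested, 19 were higher at 22°C (median log2 fold change 0.51), where 51.6% of all genes tested were higher. Against 1.94% of all genes tested, edgeR called 1 of the 20. This was mt-Tw, with 2.12, 4.60 and 7.85 CPM at 22°C and 1.12, 1.81 and 2.52 at 29°C, or between 29 and 152 counts per library. Again 6 of 7 mice at 22°C lay above every mouse at 29°C, and replicate 6 did not. The fold change was 2.66 (95% interval 1.82 to 3.88, log2 1.41, SE 0.28, edgeR P-adj = 0.0564), and it was called in 9 of 13 fits that each left out a mouse, all but those without replicate 1, 2, 3 or 5 at 29°C. With the library-total cluster as a covariate its log2 fold change was 1.28 (edgeR P-adj = 0.254), close to the pooled value. With the replicate number as a block it was 1.26 (edgeR P-adj = 0.127). Per kb, mt-Tw had 73.4 and 27.5 CPM at 22°C and 29°C, against 5875 and 3941 for mt-Nd2, which it overlaps. Whether reads of this or other tRNA genes came from the mature tRNA or from longer RNA was not tested. Read length and the handling of small RNAs are not given in the sources used here.

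The other heavy-strand tRNAs did not pass the edgeR test. mt-Tm, the methionine tRNA just before mt-Nd2, had 9.52, 13.1 and 32.4 CPM at 22°C against 6.96, 8.10 and 12.6 at 29°C, giving a log2 fold change of 0.92 (SE 0.29, edgeR P-adj = 0.148), and mt-Ti, the isoleucine tRNA, had 0.66 (SE 0.26). mt-Tv, the valine tRNA between the rRNAs, had a log2 fold change of 1.30 (SE 0.52) at levels of 0.309 to 3.03 CPM. mt-Tl1, a leucine tRNA, had 0.52 (SE 0.24), mt-Tg (glycine) 0.38 (SE 0.21), mt-Tf (phenylalanine) 0.23 (SE 0.18), mt-Tt (threonine) 0.42 (SE 0.23) and mt-Tr (arginine) 0.33 (SE 0.49). The cluster between mt-Nd4 and mt-Nd5, mt-Th, mt-Ts2 and mt-Tl2 for histidine, serine and leucine, had 0.72 (SE 0.45), 0.66 (SE 0.49) and 0.99 (SE 0.46). Replicate 3 at 22°C was the highest library in each, and without it these values were 0.34, 0.22 and 0.64. All 12 tested tRNAs of the heavy strand were thus higher on average at 22°C (median log2 fold change 0.66), where 51.6% of all genes tested were higher.

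Of the 8 light-strand tRNAs, 7 were higher at 22°C (median log2 fold change 0.50), where 51.6% of all genes tested were higher. None was called by edgeR, against 1.94% of all genes tested, whereas 2 had an unadjusted p below 0.05, against 18.5%. The cluster of mt-Ta, mt-Tn, mt-Tc and mt-Ty, for alanine, asparagine, cysteine and tyrosine, had near-equal log2 fold changes of 0.50, 0.51, 0.49 and 0.51 (SE 0.29, 0.28, 0.29 and 0.32). Replicate 7 at 22°C was the highest library in each. With any 1 mouse left out these values were as low as 0.22, 0.22, 0.19 and 0.16. mt-Tq (glutamine) had 0.82 (SE 0.32) and was called by DESeq2 (P-adj = 0.0912), mt-Te 0.54 (SE 0.22) and mt-Tp (proline) 0.16 (SE 0.16). mt-Ts1, a serine tRNA on the strand opposite the end of mt-Co1, was the only member lower at 22°C, at -0.31 (SE 0.27, edgeR P-adj = 0.573), and with the library-total cluster as a covariate it was higher, at 0.32. Without a known strand setting, reads from a gene and from its overlapping partner on the other strand cannot be told apart.

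The composition of mitochondrial mRNA, which needs no scaling between libraries, differed in 1 gene. mt-Nd4, a membrane-arm subunit of complex I, made up 8.36%, 8.95% and 9.02% of mitochondrial mRNA counts (lowest, median, highest) at 22°C and 9.41%, 9.63% and 9.73% at 29°C. The groups did not overlap, which was so for 1 of the 13 mRNAs, or 7.69%. The means were 8.85% ± 0.229 (SD, n = 7) and 9.59% ± 0.115 (SD, n = 6), a difference of -0.73 percentage points. The exact permutation p was 0.000583, the smallest that the splits of 7 and 6 mice allow, and P-adj was 0.00758 over 13 mRNAs. In the higher-total libraries alone the difference was -0.72 (exact permutation p = 0.0357, the smallest that 28 splits allow, P-adj = 0.464), and without replicates 1 and 7 at 22°C it was -0.62 (exact permutation P-adj = 0.0281). It held in every fit that left out 1 mouse, between -0.77 and -0.65. On a log2 scale over the geometric mean of the 13 mRNAs the difference was -0.09 and exact permutation P-adj was 0.140. Of the 50-base windows of mt-Nd4, 62.2% have an exact copy in another annotated transcript, so part of its counts is uncertain. Shares are parts of a whole, so larger shares of other mRNAs lower that of mt-Nd4. Its own level was higher on average at 22°C (log2 fold change 0.28).

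Within 22°C the share of mt-Nd6 differed between the clusters of library totals. It was 3.94% to 5.12% in the 5 lower-total libraries at 22°C, 2.19% and 2.57% in the 2 higher-total libraries at 22°C, and 2.38% to 3.34% at 29°C. Over all mice the means were 3.81% ± 1.05 and 2.69% ± 0.429 (exact permutation p = 0.0367, P-adj = 0.155), whereas within the higher-total libraries the difference turned to -0.31 (exact permutation P-adj = 0.862). The labels give no reason for the clusters of library totals, and 5 of 7 mice at 22°C are in the lower one, so that beyond 2 mice temperature and cluster cannot be told apart for this gene.

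**Figure D4:**
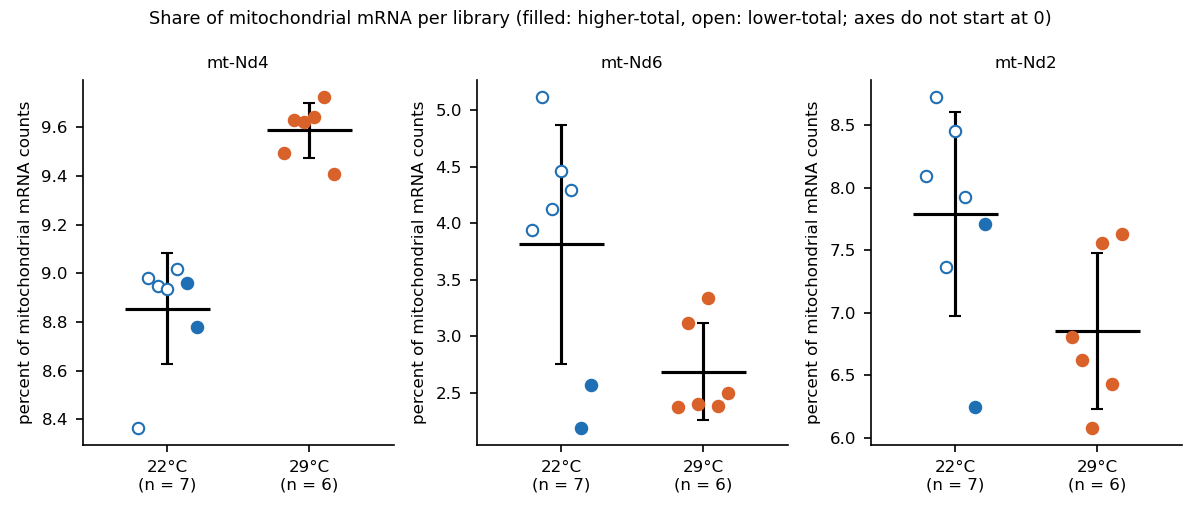
Percent of mitochondrial mRNA counts held by mt-Nd4, mt-Nd6 and mt-Nd2 in each library at 22°C (blue, n = 7) and 29°C (orange, n = 6), with the mean and SD; axes do not start at 0. For mt-Nd4 every mouse at 22°C lies at or below 9.02% and every mouse at 29°C at or above 9.41%, whereas for mt-Nd6 the filled circles at 22°C, of the higher-total cluster, lie at 2.19% and 2.57% and the open ones at or above 3.94%.

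The other abundant mRNAs kept their order in the means at both temperatures. mt-Co1 held 35.3% ± 2.06 of mitochondrial mRNA counts at 22°C and 36.6% ± 1.18 at 29°C, mt-Cytb 18.2% ± 0.917 and 18.6% ± 0.488, mt-Nd1 13.7% ± 0.882 and 13.4% ± 0.911, and mt-Nd5 12.2% ± 0.714 and 12.2% ± 0.961, all within the spread between mice. mt-Nd2 held 7.79% ± 0.816 and 6.86% ± 0.623 (exact permutation p = 0.0478, P-adj = 0.155). mt-Co2 held 0.0178% ± 0.00358 and 0.0219% ± 0.000979 (exact permutation p = 0.0262, P-adj = 0.155), with 6 of 7 mice at 22°C below every mouse at 29°C. Neither passed the adjustment over 13 mRNAs.

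Ratios between classes of RNA did not differ beyond the spread between mice. The log2 ratio of summed rRNA to summed mRNA was -4.99 ± 0.19 at 22°C and -4.82 ± 0.22 at 29°C (exact permutation p = 0.166, P-adj = 0.249), a difference of -0.17. Within the higher-total libraries this difference was 0.03. The log2 ratio of mt-Rnr2 to mt-Rnr1 was 1.80 ± 0.20 and 1.73 ± 0.18 (exact permutation P-adj = 0.529). The log2 ratio of mt-Nd6, the only light-strand mRNA, to the other 12 mRNAs was -4.71 ± 0.47 and -5.19 ± 0.23 (exact permutation p = 0.0519, P-adj = 0.156). Within the higher-total libraries the difference was -0.17. It compares genes rather than strands, since the strand setting of the counts is not known.

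Nuclear genes that work with mitochondrial DNA were compared with its transcripts. The 40 nuclear partner subunits, which are ubiquitous subunits of complexes I, III, IV and V, all had positive log2 fold changes for 22°C over 29°C (median 0.26), and edgeR called 1. *Atp5g2*, a subunit of the membrane ring of ATP synthase, had 67.8 to 89.97 CPM at 22°C and 48.2 to 69.5 at 29°C, giving a log2 fold change of 0.44 (SE 0.09, edgeR P-adj = 0.0693), and was called in 7 of 13 fits that each left out a mouse. An unadjusted p below 0.05 was reached by 18 of 40, against 18.5% of all genes tested, and DESeq2 called 7, against 10.2%, while the single edgeR call stands against 1.94%. The most abundant members were *Atp5b* (0.21, SE 0.14), *Atp5a1* (0.26, SE 0.17) and *Cox8a* (0.05, SE 0.12). The first pair belong to the catalytic part of ATP synthase, and none of the 3 passed the edgeR test.

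The machinery that copies, transcribes and processes mitochondrial DNA and RNA did not move in 1 direction. Of 47 genes 26 were higher and 21 lower at 22°C, the median log2 fold change was 0.02, and edgeR called 0, whereas 5 had an unadjusted p below 0.05 and DESeq2 called 1. These counts were near or below the shares over all genes tested, which were 51.6% higher at 22°C, 1.94% called by edgeR, 18.5% with p below 0.05 and 10.2% called by DESeq2. That gene was *Twnk*, the mitochondrial DNA helicase, with 34.3 to 38.4 CPM at 22°C and 30.9 to 33.7 at 29°C, groups that did not overlap, as in 1.24% of all genes tested (log2 fold change 0.14, SE 0.04, edgeR P-adj = 0.137, DESeq2 P-adj = 0.0587). The mitochondrial RNA polymerase *Polrmt* had 0.16 (SE 0.07) and the packaging and transcription factor *Tfam* 0.13 (SE 0.09), both chosen after their values were seen, as was *Twnk*. The most abundant members were *Fastk*, a regulator of mt-Nd6 mRNA (0.35, SE 0.13), *Hsd17b10*, part of the enzyme that cuts tRNAs from the precursor (0.13, SE 0.08), and *Grsf1*, which binds RNA in mitochondrial granules (0.22, SE 0.10).

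The 10 annotated nuclear copies all had higher means at 22°C (median log2 fold change 0.33), where 51.6% of all genes tested were higher. Of the 10, edgeR called 0, 1 had an unadjusted p below 0.05 and DESeq2 called 0. Over all genes tested these shares were 1.94%, 18.5% and 10.2%. The most abundant were Gm13340 at 22.0 to 47.9 CPM, Gm13341 at 16.8 to 39.5 and Gm10925 at 11.1 to 27.1 over all mice. They lie within stretches that match mitochondrial DNA, and their reads may come from either place. All 3 had overlapping groups.

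Across the 13 mice, mitochondrial mRNA went with the nuclear partner subunits. The log2 CPM of summed mitochondrial mRNA and the mean log2 CPM of the 40 partner subunits had Pearson's r = 0.950 (permutation p = 1e-05, the smallest that 100000 resamples can give, P-adj = 3e-05 over 3 lists) and Spearman's rho = 0.923 (permutation p = 3e-05, P-adj = 9e-05). The relation was seen within 22°C (r = 0.970, n = 7, exact permutation p = 0.000794), within 29°C (r = 0.885, n = 6, exact permutation p = 0.0181) and within the higher-total libraries (r = 0.943, n = 8, exact permutation p = 0.000570). Without the 2 libraries farthest from the median of the partner score, replicates 1 and 7 at 22°C, r was 0.871 (permutation p = 0.0006). Both measures come from the same libraries and share their scaling and cell makeup.

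The relation to the expression machinery was looser, with r = 0.723 (permutation p = 0.00453, P-adj = 0.00679) and rho = 0.659 (permutation p = 0.0170, P-adj = 0.0255). Within 22°C r was 0.855 (n = 7, exact permutation p = 0.0121) and within 29°C 0.700 (n = 6, exact permutation p = 0.121). It rested in part on replicates 1 and 4 at 22°C, without which r was 0.568 (permutation p = 0.0677). Muscle RNA did not go with mitochondrial mRNA in the same way. Over all mice r with the muscle score was 0.423 (permutation p = 0.150, P-adj = 0.150) and rho was 0.253 (permutation p = 0.403, P-adj = 0.403). Within 22°C r was 0.497 (n = 7, exact permutation p = 0.258) and within 29°C it was -0.379 (n = 6, exact permutation p = 0.474). Without replicates 1 and 7 at 22°C it was -0.327 (permutation p = 0.329). Those mice had both the most muscle RNA and the most mitochondrial mRNA.

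**Figure D5:**
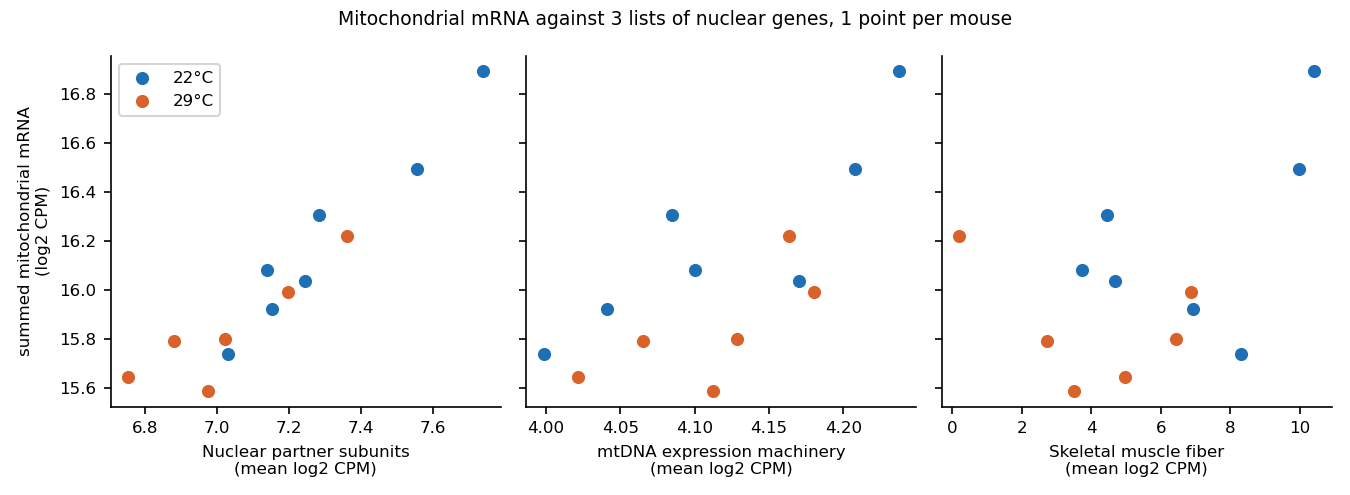
Summed mitochondrial mRNA (log2 CPM) against the mean log2 CPM of nuclear partner subunits, mitochondrial DNA expression machinery and skeletal muscle genes, with 1 point per mouse at 22°C (blue, n = 7) and 29°C (orange, n = 6). Points rise along a narrow band in the first panel (r = 0.950), more loosely in the second (r = 0.723), and in the third the 2 mice at 22°C with muscle scores of 10.4 and 9.98 stand apart at the upper right.

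Markers of other cells were measured beside these results. Of all genes tested, 51.6% were higher at 22°C, edgeR called 1.94%, 18.5% had an unadjusted p below 0.05 and DESeq2 called 10.2%. Of 11 tested brown and beige fat genes 9 were higher at 22°C, 7 had an unadjusted p below 0.05 and DESeq2 called 7. The 3 that edgeR called were *Cidea* (log2 fold change 2.51, SE 0.40), *Cox8b* (2.27, SE 0.53) and *Otop1* (2.92, SE 0.59). The 13 genes of this list took 0.0121% to 0.0355% of counts at 22°C and 0.00960% to 0.0138% at 29°C. Of 10 mature adipocyte markers 4 were higher and 6 lower, and 2 had an unadjusted p below 0.05. Both edgeR and DESeq2 called 1, *Lep*, the gene of leptin, which was lower at 22°C (-0.78, SE 0.15). Of 10 macrophage genes 3 were higher and 7 lower, all 5 red blood cell genes were lower, and edgeR called none of these 15, of which 0 had an unadjusted p below 0.05 and DESeq2 called 0. The part of brown fat and muscle RNA in the mitochondrial share was not tested.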

How the data were processed

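RNA-seq libraries of gluteal WAT from 7 mice at 22°C and 6 mice at 29°C were grouped by the temperature and replicate number in the labels. The authors used STAR 2.7.5a for alignment and featureCounts for gene counts, and deposited those raw counts; the processing notes name the GRCm39 build, and annotation, strand setting and read length are not given in the sources used here. The authors also deposited regularized log2 values, made with DESeq2. The labels do not say more on how libraries were made, and p-values measure the spread between these mice.

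Counts of all 34419 genes were fitted with edgeR 4.0.16 (R 4.3.3): TMM, filterByExpr, which left 17779 genes, quasi-likelihood F test, no covariate, Benjamini-Hochberg adjustment over all genes, P-adj below 0.1. SE was derived from the F statistic. CPM were made with totals scaled by TMM, and log2 CPM with a prior count of 2. Shares, composition and ratios used counts as deposited and two-sided exact permutation tests. Where a library has no count, up to 3 counts (0.119 to 0.134 CPM) are possible by counting error alone. Exact copies were sought in GENCODE M21 transcripts (GRCm38) in windows of 50 and 100 bases.

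All mRNAs, rRNAs and tested tRNAs are named, and of other lists the called and the 3 most abundant members. Lists were nuclear partner subunits, mitochondrial DNA expression machinery, nuclear copies, and markers of skeletal muscle, brown and beige fat, mature adipocytes, macrophages and red blood cells. Members and lists were chosen with earlier results of these data known. Alternatives were DESeq2 1.42.0, limma 3.58.1 on the authors' log2 values, other scalings, filters, thresholds and covariates, the replicate number as a block, the higher-total libraries alone and leaving out each mouse. Leaving out the 2 libraries highest in muscle score was chosen after seeing the data. The tests were tried on simulated counts.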

Additional observations from a re-analysis of the deposited data

Results flagged for a closer look

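Among 110 groups of mitochondrial values tested, 8 had a mouse far from the others of its group by Dixon's criterion, and chance gives about 1 in 20. In CPM, mt-Tt had 5.43 in replicate 7 at 22°C, its highest, and 1.59 in replicate 3 at 29°C, its lowest. mt-Tl2 had 0.580 in replicate 3 at 29°C, mt-Tm had 12.6 in replicate 4 at 29°C, and mt-Co2 had 17.0 in replicate 6 at 29°C. As a percent of mitochondrial mRNA, mt-Nd4 had 8.36 in replicate 1 at 22°C, which lay further from 29°C than the other mice at 22°C. mt-Co2 had 0.0252 in replicate 6 at 22°C, the only mouse at 22°C within or above the range of 29°C for this gene. mt-Nd4l had 0.00832 in replicate 7 at 22°C.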

How the results depend on the processing

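Of the 35 mitochondrial genes, edgeR called 2 in the fit reported, DESeq2 called 5, limma on the authors' log2 values and scaling by library totals without TMM called 1 each, and the higher-total libraries alone, the library-total cluster or the muscle score as a covariate, no filter on low counts and P-adj below 0.05 called 0 each. Without the 2 libraries highest in muscle score it was 1, and leaving out each mouse gave 0 to 3, with 0 without replicate 1, 2, 3 or 5 at 29°C. With the replicate block 0 were called, 32 of 35 were higher at 22°C (median log2 fold change 0.22), and 214 genes were called over the whole table against 345. Same-numbered mice deviated together with correlations from 0.051 to 0.51, best with their own number in 4 of 6. The labels do not say what a shared number means, so whether the mice are paired is not known, and the fit reported used no block. The nuclear partner subunits had 7 called with DESeq2, 0 with the muscle covariate, 2 with the replicate block and 0 to 1 when each mouse was left out (0 without replicate 1 at 22°C or replicate 1, 2, 3, 4 or 5 at 29°C), and the expression machinery had 1 with DESeq2. The difference in the share of all counts was 1.61 in the higher-total libraries, 0.849 without the 2 muscle-rich libraries, and 1.08 to 1.88 when each mouse was left out. It kept its call with muscle genes left out of the total, against nuclear counts, with nuclear copies added and on a log2 scale. Leaving muscle genes out of the total keeps any mitochondrial reads of muscle in the share, so it cannot show what muscle RNA contributed. The share against nuclear counts or on a log2 scale is another form of the same values. In composition, 0 mRNAs were called over the geometric mean or in the higher-total libraries, where the design is too small, and 1 to 4 when each mouse was left out (4 without replicate 6 and 3 without replicate 7 at 22°C). The rRNA to mRNA ratio differed by 0.029 in the higher-total libraries and by -0.23 to -0.11 when each mouse was left out, with P-adj = 0.0779 by the exact permutation test without replicate 7 at 22°C.

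Some directions turned, and the cause was not tested. The log2 fold changes of the called genes, mt-Nd6 and mt-Tw, did not, but the share of mt-Nd6 in mitochondrial mRNA did. With the muscle covariate mt-Rnr1 had -0.011, mt-Ta -0.042, mt-Tc -0.049 and mt-Ty -0.13 on the log2 scale. Without the 2 muscle-rich libraries mt-Rnr1 had -0.030, mt-Rnr2 -0.056, mt-Tc -0.00071, mt-Ty -0.080, mt-Co2 -0.078, mt-Tr -0.37 and mt-Nd4l -0.16, the rRNA share differed by -0.00500 and the ratio mt-Rnr2 to mt-Rnr1 by -0.021. mt-Ts1 had 0.31 in the higher-total libraries and 0.32 with their cluster as a covariate, and the replicate block gave mt-Co2 -0.00076 and mt-Tr -0.13. Within the higher-total libraries the composition differed by 0.634 for mt-Co1, 0.00052 for mt-Atp8, 0.00271 for mt-Atp6, 0.00222 for mt-Co3, 0.00113 for mt-Nd3, 0.00025 for mt-Nd4l, -0.290 for mt-Nd5 and -0.310 for mt-Nd6, and the ratio of mt-Nd6 to the other mRNAs by -0.17. When each mouse was left out, mt-Nd5 ranged from -0.0894 to 0.366 and mt-Nd3 from -0.00146 to 0.00021. Depth limits the 6 low mRNAs, at 63 to 541 counts per library, and most tRNAs, whereas each abundant mRNA had at least 30571 counts.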
